A study of Homo sapiens with 10 samples.

Results

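The 4 genes described here were CD44 and 3 genes that encode regulators of its splicing, KHDRBS1 (SAM68), ESRP1 and ESRP2. They were chosen by name, with earlier results of these data known. They were matched by symbol among the 63152 Ensembl identifiers of the expression tables, and all 4 were found. CD44 (ENSG00000026508) lies at chr11:35160429-35253949 and KHDRBS1 (ENSG00000121774) at chr1:32479469-32526451, both on the plus strand of GRCh37. ESRP1 lies at chr8:95653302-95719694 on the plus strand and ESRP2 at chr16:68262936-68272005 on the minus strand.

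CD44 is a transmembrane receptor for the matrix polysaccharide hyaluronan. Its transcript holds a block of variable exons, v2 to v10, that are skipped in the standard form and included in many combinations in other forms. SAM68 is an RNA-binding protein of the STAR family that favours inclusion of variable exon v5 after mitogenic signalling, and BRM has been described to act with SAM68 on CD44 exon choice. ESRP1 and ESRP2 are epithelial RNA-binding proteins that favour inclusion of the CD44 variable exons in epithelial cells.

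Polyadenylated RNA was sequenced from C33A cells, a human cervical carcinoma line described as deficient in BRG1 and BRM. The cells were transfected transiently for 48 h with 1 of 5 plasmids, and each group had 2 libraries. These were the empty vector pOPRSVI (control), pBJ5-BRG1 (BRG1-wt), pBJ5-BRG1-K798R (BRG1-mut, without ATPase activity), pCG-hBrm (BRM-wt) and pCG-hBrm-K798R (BRM-mut, without ATPase activity). The control, BRG1 and BRM plasmids thus had different backbones, and only the wild type and mutant of the same ATPase shared 1. The cells were harvested as whole populations, so a change in a share of the cells and a change in all of them cannot be told apart. Nothing in the labels says whether the 2 libraries of a group came from separate cultures on separate days.

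The sequences of the exons and the promoter that the values below refer to are shown first. Variable exon v5 of CD44 is the exon known for its response to SAM68, and it is exon 9 of the 18 exons of transcript ENST00000428726, at chr11:35223218-35223334 on the plus strand of GRCh37, with all 117 bases coding. The 63-nt exon of ENAH, an ESRP target gene, is shown because it has inclusion values in these data. ENAH encodes an actin regulator and its 63-nt exon, at chr1:225692693-225692755 on the minus strand, is included in epithelial cells.
CD44 v5: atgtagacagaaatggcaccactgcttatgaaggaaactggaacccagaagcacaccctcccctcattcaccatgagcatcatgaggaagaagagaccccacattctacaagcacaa
ENAH 63-nt exon: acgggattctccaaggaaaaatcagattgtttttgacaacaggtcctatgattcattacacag

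SAM68 is known to bind short A- and U-rich motifs, here searched on the transcribed strand as TAAA or TTAA, and exon v5 held 0 of them. Among 3259 annotated exons of the same length, 34.6% held at least 1. The 250 bases before the CD44 start site in RefSeq (GRCh38.p14, chr11:35138921-35139170, plus strand) are shown because the level of the whole transcript differed most among the 4 genes. Capitals mark GC boxes (GGGCGG, or CCGCCC on the other strand), of which there were 2. The AP-1 motif TGACTCA, searched on both strands, was at 0 in this window. A GC box was held by 42.6% and an AP-1 motif by 4.20% of 35116 promoter windows of this length.
CD44 promoter: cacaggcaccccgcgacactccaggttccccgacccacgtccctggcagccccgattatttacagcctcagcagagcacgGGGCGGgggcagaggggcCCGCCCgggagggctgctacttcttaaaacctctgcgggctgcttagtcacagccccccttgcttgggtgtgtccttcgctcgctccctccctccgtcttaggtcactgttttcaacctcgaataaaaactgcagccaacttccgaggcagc

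Each expression table sets 1 ATPase group against the control and holds 1 base mean per gene, the authors' mean of normalised read counts over the 2 libraries of the group and the 2 control libraries. A base mean therefore has no error of its own, and no p-value was computed. The 4 tables were normalised separately and share the control libraries, so they were brought to a common scale by the median ratio over genes, with divisors of 0.971 to 1.028. The targeted genes followed the labels. SMARCA4, which encodes BRG1, had scaled base means of 25653 in the BRG1-wt and 30323 in the BRG1-mut table against 3979 and 2992 in the BRM-wt and BRM-mut tables, so SMARCA4 RNA was present without a BRG1 plasmid. SMARCA2, which encodes BRM, had 61427 in the BRM-wt and 73523 in the BRM-mut table against 12.5 and 9.49 in the tables of the BRG1 groups. These values are RNA, and for protein the paper describes slightly more of each wild type than of its mutant.

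CD44 was high in the 2 tables of the active ATPases and low in the 2 tables of the inactive ones. Its scaled base mean was 125 with BRG1-wt, 176 with BRM-wt, 8.52 with BRG1-mut and 5.94 with BRM-mut. The ratio of the BRG1-wt to the BRG1-mut table was 14.7-fold (3.88 on the log2 scale), and that of BRM-wt to BRM-mut was 29.7-fold (4.89). Among 16451 genes with a mean base mean of at least 10, CD44 stood 17th from the top in the first comparison and 12th in the second. Of all these genes, 2.18% were higher past 1.5-fold and 2.87% lower in BRG1-wt over BRG1-mut, and 4.41% and 0.225% in BRM-wt over BRM-mut. Of the 3 genes of the 4 that passed the filter on low values, 1, CD44, was past 1.5-fold in each of these comparisons. CD44 passed that filter only through the 2 tables in which it was high. It was also chosen with earlier results of these data known, so its ranks are a description and no independent support.

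**Figure D1:**
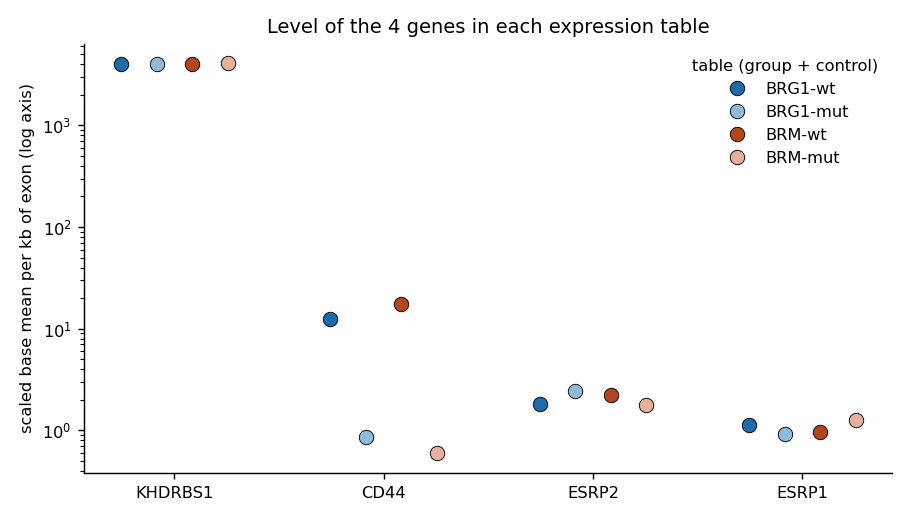
Level of KHDRBS1, CD44, ESRP2 and ESRP1, as the scaled base mean per kilobase of annotated exon on a log axis. Each point is 1 expression table, which pools an ATPase group with the control. CD44 lies at 12.6 and 17.6 in the BRG1-wt and BRM-wt tables and at 0.853 and 0.594 in the tables of the mutants, while the KHDRBS1 points lie between 3982 and 4066.

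Since the control libraries enter every table, the control level of CD44 can be at most 2 times the lowest scaled base mean, which is 11.9. From this, and if the control has the same scaled level in all tables, the mean of the BRG1-wt libraries was at least 20.1-fold and that of the BRM-wt libraries at least 28.7-fold the control mean. The control and ATPase plasmids differ in backbone, so vector and ATPase cannot be told apart in these bounds. These bounds stood 15th and 13th of 16451 genes, again for a gene chosen with earlier results known. A bound past 1.5-fold was found for 0.973% of the genes with BRG1-wt and 0.918% with BRM-wt. With the lowest base mean placed at the upper end of its 95% Poisson interval, 8.76, the bounds were 13.3-fold and 19.1-fold. With the mutants the CD44 bounds were below 1.5-fold (0.436 with BRG1-mut and -0.303 with BRM-mut, the latter no bound at all), and a bound past it was found for 0.857% and 0.0182% of genes.

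**Figure D2:**
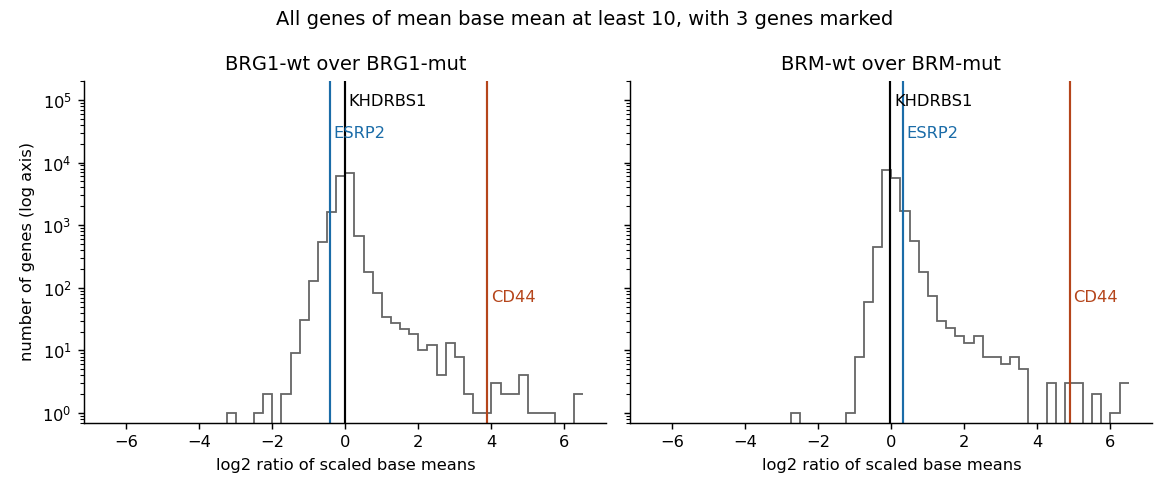
Number of genes (log axis) by log2 ratio of scaled base means, in steps of 0.25, for BRG1-wt over BRG1-mut on the left and BRM-wt over BRM-mut on the right, where 1 gene lies beyond the axis. CD44, at 3.88 and 4.89, lies in the far right tail. KHDRBS1 (-0.01 and -0.03) lies in the middle, and ESRP2 (-0.43 and 0.32) lies to the left of it in one panel and to the right in the other.

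The low base means hold more than a mean. One read in 1 library adds a fixed step of 0.218 to 0.298 to a base mean, and the steps of the 4 libraries of a table differ, so that a low base mean can be split into whole reads in 1 way. The tables do not name these libraries. Only the 2 control libraries enter every table, and the CD44 counts of 2 and 10 came back in all 4 tables. In the BRG1-wt table CD44 had 2, 10, 226 and 277 reads in the 4 libraries, 515 in all (95% Poisson interval 471 to 561). With BRM-wt it had 2, 10, 179 and 528 reads, 719 in all (667 to 774). Of the 4 libraries 2 were high and 2 were low in both cases, with no library between 10 and 179 reads. In the BRG1-mut table CD44 had 2, 10, 10 and 12 reads, and with BRM-mut it had 2, 5, 8 and 10. No library of these tables was high, and their sums were 34 reads (23.5 to 47.5) and 25 reads (16.2 to 36.9). Both sums hold the counts of 2 and 10 that came back in every table, so the overlap of these intervals is partly built in. The intervals cover counting error only.

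The BRG1-wt and BRM-wt tables were closer to each other. Their ratio for CD44 was 0.712 (-0.49 on the log2 scale), which did not pass 1.5-fold but stood 65th from the bottom among all genes. Lower values past 1.5-fold were found for 0.213% and higher ones for 0.334% of genes in that comparison. The BRG1 and BRM plasmids differ in backbone, so vector and ATPase cannot be told apart in it. A single library held 73.4% of the CD44 reads of the BRM-wt table, and the 2 high libraries of that table, with 179 and 528 reads, lay on both sides of those of the BRG1-wt table, with 226 and 277. The read counts of the high libraries of the BRG1-wt and BRM-wt tables thus overlapped. These counts are not corrected for library depth. What 1 read adds to the base mean differs up to 1.37-fold between the libraries of the BRM-wt table. Between the mutants the CD44 ratio was 1.44 (0.52), in a comparison in which 10.9% of genes were higher past 1.5-fold and 0.322% lower. It was 1.55 when the tables were scaled within bins of genes of like GC content.

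**Figure D3:**
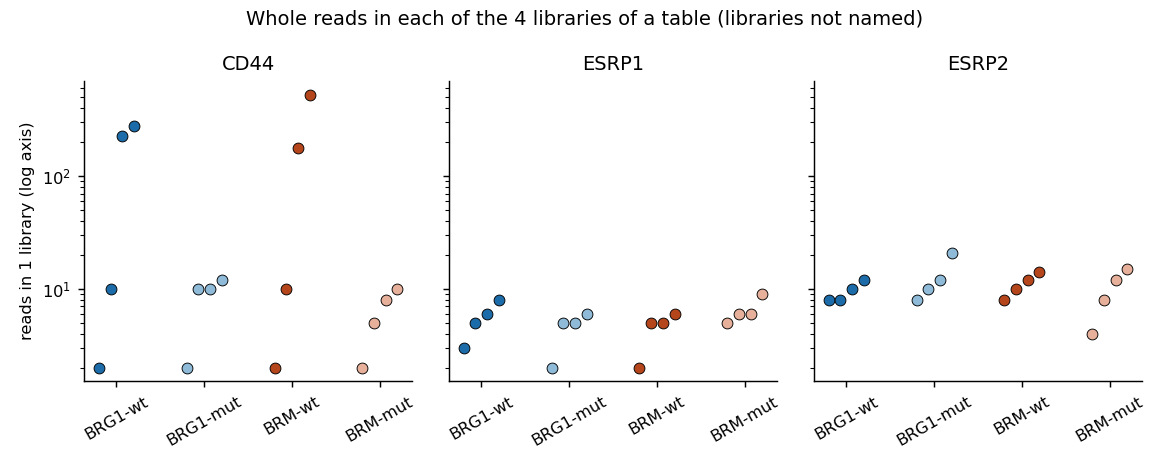
Whole reads of CD44, ESRP1 and ESRP2 in each of the 4 libraries behind a base mean, sorted within the table, on a log axis. For CD44, 2 libraries of the BRG1-wt table (226 and 277 reads) and 2 of the BRM-wt table (179 and 528) stand above the others, which lie between 2 and 12. For ESRP1 and ESRP2 the libraries lie between 2 and 21 reads in all tables.

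KHDRBS1 was the most abundant of the 4 genes and varied least. Its scaled base mean was 14202 with BRG1-wt, 14316 with BRG1-mut, 14111 with BRM-wt and 14409 with BRM-mut. The highest table exceeded the lowest by 2.11%, and the base means as deposited, with no scaling between tables, lay at 13705 to 14814. In BRG1-wt over BRG1-mut its log2 ratio was -0.01 and in BRM-wt over BRM-mut -0.03, against a median over all genes of 0.00 in both. The base means are too high to be split into reads, so the spread between libraries could not be given.

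ESRP1 and ESRP2 were near the lower limit of detection. ESRP1 had base means of 5.55 with BRG1-wt, 4.41 with BRG1-mut, 4.59 with BRM-wt and 6.39 with BRM-mut, and did not pass the filter on low values. These stood for 3, 5, 6 and 8 reads in the BRG1-wt table, 2, 5, 5 and 6 in the BRG1-mut table, 2, 5, 5 and 6 in the BRM-wt table and 5, 6, 6 and 9 in the BRM-mut table. The ESRP1 counts of 5 and 6 came back in every table, so the tables overlap by construction. The other ESRP1 counts were 3 and 8, 2 and 5, 2 and 5, and 6 and 9 in the same order. ESRP2 had scaled base means of 9.41 with BRG1-wt, 12.7 with BRG1-mut, 11.5 with BRM-wt and 9.25 with BRM-mut. Its reads were 8, 8, 10 and 12 in the BRG1-wt table and 8, 10, 12 and 21 in the BRG1-mut table. They were 8, 10, 12 and 14 in the BRM-wt table and 4, 8, 12 and 15 in the BRM-mut table. The ESRP2 counts of 8 and 12 came back in every table, and the others were 8 and 10, 10 and 21, 10 and 14, and 4 and 15. No ESRP2 ratio passed 1.5-fold, with 0.743 for BRG1-wt over BRG1-mut and 1.24 for BRM-wt over BRM-mut. Counts this low leave a difference in either gene neither shown nor excluded, and none was tested.

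Per kilobase of annotated exon the scaled base mean of KHDRBS1 was 3982 to 4066, that of CD44 0.594 to 17.6, that of ESRP2 1.78 to 2.44 and that of ESRP1 0.919 to 1.27. KHDRBS1 thus stood above CD44 in every table. CD44 stood above both ESRP genes with BRG1-wt and BRM-wt and below both with BRG1-mut and BRM-mut. With the length of the longest transcript in place of all exons, CD44 stood above ESRP1 with BRG1-mut (1.57 against 1.19), and the order relative to the ESRP genes was otherwise kept. ESRP2 stood above ESRP1 in every table.

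Genes with a pattern over the 4 tables like that of CD44 were sought by the distance between centred log2 scaled base means. The search covered 11894 genes with a mean base mean of at least 100. CD44 itself lay below this limit, so genes of its own level were not searched. The 5 nearest were OAS2 (distance 0.54), OAS1 (0.75), XAF1 (0.79), S100A16 (1.03) and MX1 (1.08). All 5 lay below 100 in the BRG1-mut and BRM-mut tables. They thus passed the limit only through the BRG1-wt and BRM-wt tables, in which they were high. OAS1 and OAS2 are 2-5A synthetases, XAF1 is a pro-apoptotic factor and MX1 a dynamin-like antiviral GTPase, and S100A16 is a calcium-binding protein. OAS2 had scaled base means of 1406 with BRG1-wt and 1446 with BRM-wt against 60.4 with BRG1-mut and 42.1 with BRM-mut. MX1, the least like of the 5, had 1931 and 1535 against 67.1 and 32.3. The likeness rests on 4 pooled values that share the controls.

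Other regulators of the CD44 variable exons were set beside the members. Of a list of 21 regulators, which holds KHDRBS1, ESRP1 and ESRP2, 20 passed the filter on low values. Of these, 0 were past 1.5-fold in either direction in the 4 comparisons. Over all genes the share past it in a given direction was 0.213% to 10.9%. A count of 0 in a list this short, or in the STAR family below, was thus no result about the list. Nor does it show unchanged levels, since the shared control draws the tables together. The median log2 ratio of the list was -0.01 in BRG1-wt over BRG1-mut and -0.01 in BRM-wt over BRM-mut. HNRNPLL had the highest ratio in BRG1-wt over BRG1-mut at 1.08, and ESRP2 the lowest. CBX3, a heterochromatin protein that binds along CD44, had the lowest in BRM-wt over BRM-mut at 0.947. U2AF2, which recognises the polypyrimidine tract, reached 1.49 in BRG1-mut over BRM-mut, and it lay at 0.937 with scaling within GC bins. In the same comparison HNRNPA1 was lowest at 0.892, and in BRG1-wt over BRM-wt YBX1, an activator of the variable exons, was highest at 1.06 and ESRP2 lowest at 0.817. Within the STAR family 4 of 5 genes passed the filter and 0 were past 1.5-fold, with ratios from 0.9 to 1.13 over the 4 comparisons, given by QKI and SF1 in BRG1-mut over BRM-mut. SF1 was lowest in BRG1-wt over BRG1-mut (0.932), where QKI was highest (1.03), and KHDRBS3 in BRM-wt over BRM-mut (0.907), where SF1 was highest (1.06). In BRG1-wt over BRM-wt QKI was lowest (0.968) and KHDRBS3 highest (1.04). KHDRBS3 lay at 426 to 469, and KHDRBS2 was listed at 0 in 3 tables.

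**Figure D4:**
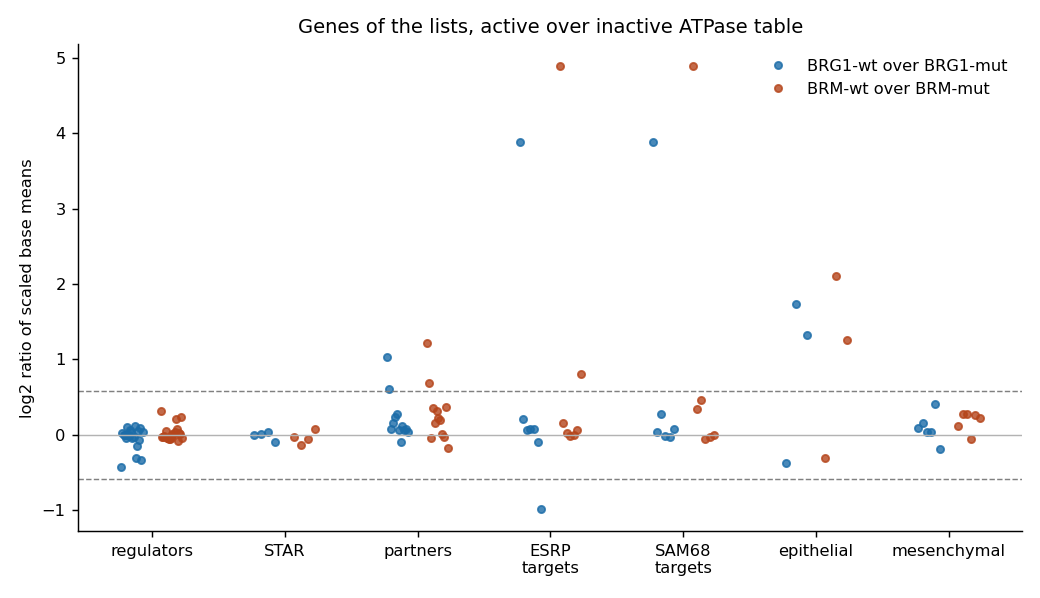
Log2 ratio of scaled base means for the genes of 7 lists with a mean base mean of at least 10, for BRG1-wt over BRG1-mut and BRM-wt over BRM-mut. Dashed lines mark 1.5-fold. CD44 is the point at 3.88 and 4.89 in the lists of ESRP and SAM68 targets, all regulators lie between the dashed lines, and the genes beyond them are HAS3, SPP1, SCRIB, KRT8 and KRT18 beside CD44.

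Ligands, cytoskeletal partners, sheddases and co-receptors of CD44 formed a list of 17, of which 12 passed the filter. In both comparisons of active over inactive ATPase, 2 were higher past 1.5-fold and 0 lower. Over all genes, 2.18% were higher and 2.87% lower in BRG1-wt over BRG1-mut, and 4.41% and 0.225% in BRM-wt over BRM-mut. HAS3, a hyaluronan synthase, had scaled base means of 563 with BRG1-wt and 611 with BRM-wt against 275 with BRG1-mut and 265 with BRM-mut, ratios of 2.05 and 2.31. SPP1, which encodes the CD44 ligand osteopontin, had 60 and 64.3 against 39.6 and 39.8, ratios of 1.52 and 1.62, and the first of these was 1.46 with scaling within GC bins. HAS1 was listed at 0, and per kilobase of exon HAS2 lay at 0.237 to 0.918 and HAS3 at 51 to 118. Of the genes in the ERM family that link CD44 to actin, EZR lay at 7288 to 9271, RDX at 15108 to 18999 and MSN at 9214 to 11492. MMP14 was the lowest of the list in BRG1-wt over BRG1-mut (0.933) and the highest in BRG1-mut over BRM-mut (1.28), where RDX was lowest (0.882). SLC7A11, the cystine transporter that CD44 variant forms stabilise, was lowest in BRM-wt over BRM-mut (0.885) and highest in BRG1-wt over BRM-wt (1.11), where MET was lowest (0.828). The median log2 ratio of the list was 0.10 in BRG1-wt over BRG1-mut and 0.21 in BRM-wt over BRM-mut.

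Of 7 genes with exons that ESRP1 and ESRP2 are known to regulate, CD44 among them, all 7 passed the filter. Past 1.5-fold were 1 higher and 1 lower in BRG1-wt over BRG1-mut, and 2 higher and 0 lower in BRM-wt over BRM-mut, which were CD44 and SCRIB. The shares over all genes were 2.18% higher and 2.87% lower in the first comparison, and 4.41% and 0.225% in the second. SCRIB, a polarity gene, had 534 with BRG1-wt, 1058 with BRG1-mut, 652 with BRM-wt and 375 with BRM-mut. Its ratio was 0.504 in BRG1-wt over BRG1-mut, 1.74 in BRM-wt over BRM-mut and 2.82 in BRG1-mut over BRM-mut. SCRIB exons are 67.3% GC, and with scaling within GC bins these ratios were 0.716, 1.28 and 1.48, none past 1.5-fold. In the same list ENAH was lowest in BRM-wt over BRM-mut (0.989), SLK lowest in BRG1-mut over BRM-mut (0.881) and ARHGEF11 highest in BRG1-wt over BRM-wt (1.05). Of 9 genes with SAM68-regulated exons, 6 passed the filter, and CD44 alone was past 1.5-fold, in both comparisons of active over inactive ATPase. The lowest of these were MTOR (0.976) in BRG1-wt over BRG1-mut, SRSF1 (0.96) in BRM-wt over BRM-mut and SGCE (0.948) in BRG1-mut over BRM-mut, and BCL2L1 was highest in BRG1-wt over BRM-wt (1.01).

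Scaling moved the balance of calls over all genes. BRG1-wt over BRG1-mut gave 358 genes higher and 472 lower (43.1% higher), and with scaling within GC bins 393 and 54 (87.9%). BRG1-mut over BRM-mut gave 97.1% higher, and within GC bins 62.3%. BRG1-wt over BRM-wt gave 61.1% higher, and 75.9% with no scaling. The CD44 ratios lay between 14.4 and 15 in BRG1-wt over BRG1-mut and between 28 and 30.7 in BRM-wt over BRM-mut under all of these.

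Markers of C33A and of other cell types were read from the same tables. Of 7 epithelial markers 3 passed the filter. KRT8 and KRT18, which encode simple-epithelium keratins, were higher in both comparisons of active over inactive ATPase. Their ratios between the pooled tables were 3.32 and 2.5 for BRG1 and 4.33 and 2.37 for BRM. Over all genes, 2.18% and 4.41% were higher past 1.5-fold in these comparisons, and 2.87% and 0.225% lower. EPCAM, which encodes an epithelial adhesion molecule, was on the other side, at 0.776 and 0.809, short of 1.5-fold. In BRG1-mut over BRM-mut KRT8 lay at 1.54, but at 1.48 with no scaling and 1.26 with scaling within GC bins. CDH1, the epithelial cadherin, lay at 3.1 to 6.24 and EPCAM at 23.3 to 30.7, while GRHL2, KRT19 and OVOL1 were at 0 to 1.23. Of 8 mesenchymal markers 6 passed, and 0 were past 1.5-fold in active over inactive ATPase. VIM lay at 11054 to 11998 and ZEB1 at 3313 to 3649, ZEB2 was highest in BRG1-wt over BRG1-mut (1.33) and CDH2 in BRM-wt over BRM-mut (1.21). FN1 was lowest in BRG1-wt over BRM-wt (0.83). SNAI1 lay at 1.64 in BRG1-mut over BRM-mut, but at 1.27 with scaling within GC bins. Among other cell types, PTPRC (CD45) lay at 1555 to 1801 and was the single leukocyte marker of 5 to pass the filter, with CD3E listed at 0. Of 5 fibroblast markers 4 passed, with PDGFRB past 1.5-fold in both comparisons of active over inactive ATPase (1.55 and 1.77). COL1A1 lay at 1.95 both in BRM-wt over BRM-mut and in BRG1-mut over BRM-mut (1.39 in the latter with scaling within GC bins), and at 1 in BRG1-wt over BRG1-mut. LUM was lowest in BRM-wt over BRM-mut (0.856) and in BRG1-mut over BRM-mut (0.822). Of 4 endothelial markers 3 were found and 0 passed. The part of these markers in the CD44 level was not tested.

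Exon inclusion was read from 8 splicing tables, in which the authors compared each ATPase library with its like-numbered control library and listed 396 to 977 exon events per table. Only exons past a Bayes factor of 10 in that comparison were listed. Every PSI below was thus selected for differing from its control. PSI, the percent spliced in, is given as a fraction of transcripts that include the exon. No event in CD44, KHDRBS1, ESRP1 or ESRP2 was listed in any table, so no PSI of v5 or of another variable exon can be given. Of 15971 genes with a mean base mean of at least 10 and annotated coordinates, 13.9% had at least 1 listed event. The share was 3.18% of genes with a mean base mean of 10 to 100, the range of CD44 and ESRP2, and 20.4% of genes with at least 1000, the range of KHDRBS1. The low libraries held 2 to 12 CD44 reads over the whole gene, so a change in inclusion against such libraries was not detectable at this depth, and the absence of CD44 from the lists is no measure of its splicing.

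Events were listed in 9 of the 56 genes of the regulator, STAR, partner and target lists, with 16 events in all. These 9 were among the 46 list genes with a mean base mean of at least 10. Over all genes past that filter the share with an event was 13.9%, and 20.4% of those with at least 1000. Over the 4 groups these gave 33 values, of which 19 had both replicates, 11 with replicates that moved the same way and 8 with opposed replicates. With BRG1-mut the replicates moved the same way in 8 of 9, and with BRM-wt in 1 of 7. Of these, 4 of the 8 and 4 of the 6 opposed values were overlapping forms of 1 CTNND1 exon and are not separate observations. Over all listed events with both replicates, whatever the gene, the same direction was found for 134 of 145 with BRG1-mut (92.4%), 13 of 293 with BRM-wt (4.44%), 30 of 57 with BRG1-wt (52.6%) and 27 of 48 with BRM-mut (56.2%). These counts hold only events that passed the authors' limit in both replicates. The replicates of BRM-wt thus went against each other in 280 of 293 listed events, and the BRM-wt values below that rest on 1 replicate are to be read beside this. Each value sets 1 library against 1, and with 2 libraries against 2 no exact permutation test can reach a two-sided p of 0.05, so none was run.

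Among ESRP targets, CTNND1 encodes p120-catenin, and its alternative 5' exons decide between isoforms that start at different codons. Its 289-nt exon (chr11:57558857-57559145) had a PSI of 0.53 and 0.57 with BRG1-mut against 0.20 and 0.31 in the control of the same number. With BRM-wt the replicates were opposed, at 0.54 against 0.20 and 0.09 against 0.31, and with BRM-mut replicate 1 lay at 0.08 against 0.20. The same exon with another downstream exon, and a 180-nt form of it with either downstream exon, went the same way in each library in which they were listed, and the forms share bases with it. A 119-nt exon of CTNND1 was included at 0.99 against 0.92 with BRM-mut in replicate 2. The 63-nt exon of ENAH was at 0.02 with BRG1-mut and 0.05 in the control, in replicate 1 alone. A 795-nt exon of ENAH was at 0.42 and 0.39 with BRG1-mut against 0.55 and 0.49.

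**Figure D5:**
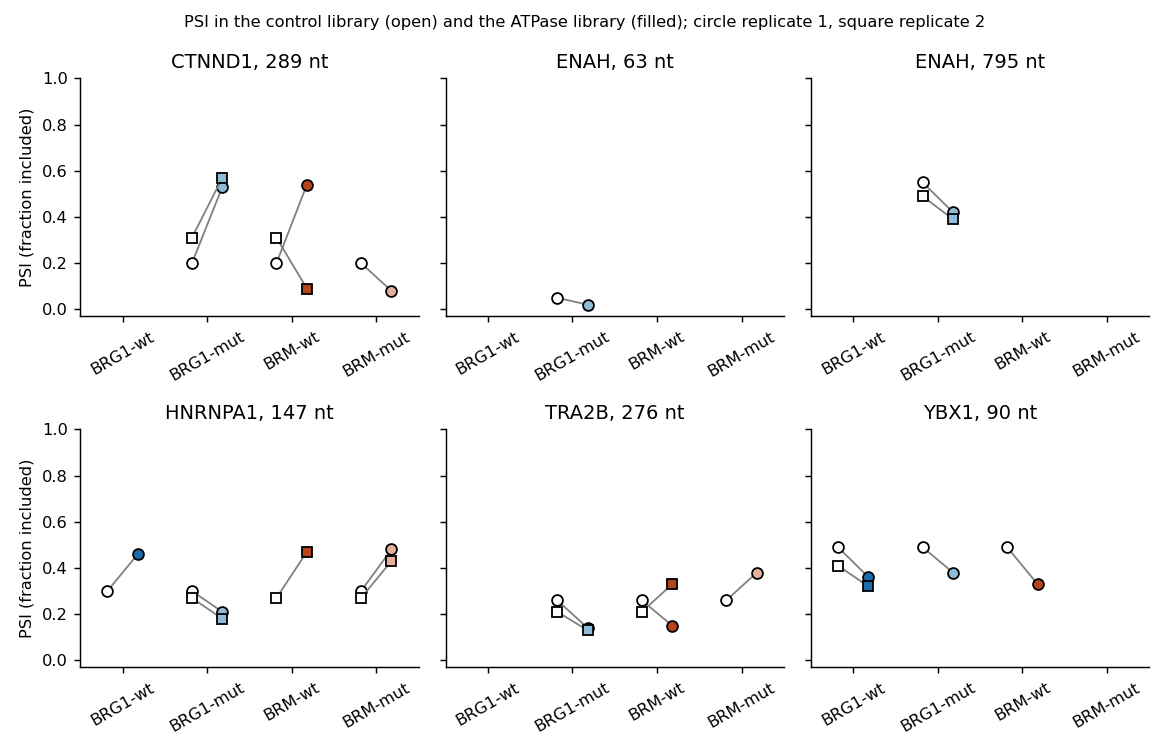
PSI of 6 events in each library pair, with the control library as an open and the ATPase library as a filled symbol, joined by a line. Circles are replicate 1 and squares replicate 2, and a group without symbols had no listed value. The CTNND1 lines both slope up with BRG1-mut and cross with BRM-wt, and the HNRNPA1 lines slope down with BRG1-mut and up with BRM-mut.

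Among regulators, HNRNPA1, which represses CD44 variable exons, had 3 events. Its 147-nt exon (chr12:54675579-54675725) was at 0.21 and 0.18 with BRG1-mut against 0.30 and 0.27, and at 0.48 and 0.43 with BRM-mut against the same control libraries. The single listed replicates of BRG1-wt and BRM-wt were at 0.46 against 0.30 and 0.47 against 0.27. Its 156-nt exon was at 0.39 and 0.33 with BRM-wt against 0.29 and 0.25. Its 60-nt exon went up in replicate 1 and down in replicate 2 with both BRG1-wt (0.09 against 0.05 and 0.03 against 0.12) and BRG1-mut (0.10 against 0.05 and 0.05 against 0.12). TRA2B, an activator of CD44 exons v4 and v5, had a 276-nt exon known to lead to decay of its own transcript. It was at 0.14 and 0.13 with BRG1-mut against 0.26 and 0.21, opposed in the replicates of BRM-wt (0.15 and 0.33) and at 0.38 in the single listed replicate of BRM-mut. The like exon of SRSF3, of 456 nt, was at 0.02 to 0.05 in the libraries listed. A 90-nt exon of YBX1 was at 0.36 and 0.32 with BRG1-wt against 0.49 and 0.41, and at 0.38 with BRG1-mut and 0.33 with BRM-wt in replicate 1 alone.

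In the STAR family, a 131-nt exon of KHDRBS3, which encodes the SAM68-like protein SLM2, was at 0.61 with BRM-wt and 0.02 in the control, in replicate 1 alone. A 205-nt exon of SF1, a branch point binding protein, was at 0.08 and 0.13 with BRG1-mut against 0.02 and 0.08, and opposed in the replicates of BRM-wt (0.10 and 0.00). Among partners, NF2, which encodes the CD44-binding protein merlin, had an 86-nt exon at 0.28 against 0.16 with BRM-mut in replicate 2. No event was listed in the genes with SAM68-regulated exons.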

How the data were processed

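The authors mapped the reads with TopHat2 2.0.4 to GRCh37, counted them on genes with HTSeq 0.6.1 (duplicates included, annotation not given in the sources used here) and ran DESeq2, whose deposited base mean, here treated as a score, gives the gene's level over 4 libraries. The deposited PSI is a fraction per library, which the authors estimated with MISO for exons past a Bayes factor of 10. The authors' own comparisons in these tables (log2 fold changes, standard errors, Wald statistics, p-values, Bayes factors) were not used.

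Identifiers were matched to symbols in GENCODE release 44 lifted to GRCh37 (55139 of 63152). Base means were scaled by the median ratio to the geometric mean of the 4 tables, and genes with a mean of at least 10 were compared by ratios, with 1.5-fold as the limit (Python 3.11.15, pandas 2.3.3, scipy 1.17.1). The exonic GC content was known for 15971 of 16451 genes. Low base means were split into whole reads, which gave 1 solution in every table for 3848 of 3848 genes with base means of 2 to 15. The steps were tested on simulated data. Events were assigned to genes by coordinates and strand.

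Named are the 4 genes in all comparisons, SMARCA4 and SMARCA2, the highest and lowest member of each list of regulators, STAR genes, partners and targets, every list member past 1.5-fold, every list gene with a listed event and the 5 genes most like CD44. The 4 genes and the lists were chosen with earlier results of these data known, and 1 listed gene is not reported here. Alternatives were other scalings, filters, folds, lengths and replicates left out. The tables give no total of reads per library. They had 28464 to 28896 identifiers above 0.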

Additional observations from a re-analysis of the deposited data

Results flagged for a closer look

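The 147-nt exon of HNRNPA1, a repressor of CD44 variable exons, stood out because both replicates of BRG1-mut moved one way and both of BRM-mut the other. The mean change in PSI against the control of the same number was -0.09 with BRG1-mut (0.30 to 0.21 and 0.27 to 0.18) and 0.17 with BRM-mut (0.30 to 0.48 and 0.27 to 0.43). The difference was not tested, the changes share their control libraries, and the reads behind the PSI values are unknown.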

How the results depend on the processing

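The CD44 ratio kept its direction under every scaling and filter in which it entered. On the log2 scale it was 3.85 to 3.91 in BRG1-wt over BRG1-mut, 4.81 to 4.94 in BRM-wt over BRM-mut, -0.44 to -0.49 in BRG1-wt over BRM-wt and 0.46 to 0.63 in BRG1-mut over BRM-mut, and the last passed 1.5-fold with scaling within 20 GC bins. CD44 did not enter with a mean base mean of at least 100. With the length of the longest transcript in place of all exons the highest level per kilobase of CD44 was 32.4 and that of KHDRBS1 5263, and the order of the 4 genes by highest level was kept.

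The counts of genes past the limit, 830, 763, 90 and 1840 in BRG1-wt over BRG1-mut, BRM-wt over BRM-mut, BRG1-wt over BRM-wt and BRG1-mut over BRM-mut, depended on the settings. With scaling within GC bins the first, second and last were 447, 437 and 332. With a mean of at least 100 they were 406, 322, 11 and 1192, with no filter 4943, 4932, 4067 and 5924, with 2-fold 214, 228, 8 and 516, and with a limit of 0.32 on the log2 scale 2442, 2309, 607 and 3958. The last 4 sets differ by construction in the genes entered or the limit, and for the GC bins the cause was not tested. With equal sums of base means U2AF2 passed 1.5-fold in BRG1-mut over BRM-mut, as the 1 regulator to do so, and with the limit of 0.32 ESRP2 and PTBP1 passed it as well, higher in this comparison and lower in BRG1-wt over BRG1-mut.

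Of the 16 listed events, 6 had a change of at least 0.2 in a replicate, 13 were listed without replicate 1 and 14 without replicate 2. Leaving out a replicate turned the mean change in the values with opposed replicates. For the 60-nt exon of HNRNPA1 it ranged from -0.09 to 0.04 with BRG1-wt and from -0.07 to 0.05 with BRG1-mut. For TRA2B with BRM-wt it ranged from -0.11 to 0.12, and for the CTNND1 events with BRM-wt from -0.22 to 0.34, -0.19 to 0.36, -0.19 to 0.34 and -0.12 to 0.29.

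No paired analysis was possible because the base means pool the libraries of a table, no event in the 4 genes was listed and no result comes from a test. For the listed PSI values the mean change over both replicates is the same with the control libraries crossed. The assignment of events by symbol was not run, since the tables give coordinates. A base mean that was not split into reads has no error of its own, and the depth behind each PSI is unknown.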

Other observations

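When the CD44 base means were split into reads, 2 of the 4 counts, 2 and 10 reads, came back in all 4 tables. For ESRP1 the counts that came back were 5 and 6 reads, and for ESRP2 8 and 12. A pair at the same places among the libraries recurred in all tables for 3848 of 3848 genes with base means of 2 to 15. The other CD44 counts were 226 and 277 in the BRG1-wt, 10 and 12 in the BRG1-mut, 179 and 528 in the BRM-wt and 5 and 8 in the BRM-mut table. The other counts of ESRP1 were 3 and 8, 2 and 5, 2 and 5, and 6 and 9 in the same order, and those of ESRP2 were 8 and 10, 10 and 21, 10 and 14, and 4 and 15. Only the 2 control libraries enter every table. The tables do not name the libraries, and no group mean or test was made from these counts.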
